A study of Mus musculus with 6 samples.

Results

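The steroidogenesis genes of Leydig cells were examined in whole testes of 5 dpp mice, with and without deletion of *Srsf1* in germ cells. The 10 genes, called members here, were chosen by name and matched 10 rows among the 54532 genes of the deposited table. They were *Scarb1*, *Star*, *Cyp11a1*, *Hsd3b1*, *Hsd3b6*, *Cyp17a1* and *Hsd17b3*, which serve the path from cholesterol to testosterone, together with *Lhcgr*, *Nr5a1* and *Insl3*. The study compared 3 control (Ctrl) testes with 3 conditional knockout (cKO) testes, and described 3 biological replicates per condition. Mice of the cKO group carried *Vasa*-Cre, which is driven by a germ-cell gene, with a floxed and a deleted allele of *Srsf1* (Fl/del), so cells outside the germ line would keep the floxed allele beside the deleted allele. For the Ctrl group the labels gave no genotype beyond the word Ctrl, and they did not say whether a sample was 1 animal or a pool, so the p-values measure only the spread between these samples.

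Leydig cells lie between the seminiferous tubules and make androgens under the control of luteinising hormone (LH). In mice, a fetal population makes androgens before birth and persists for some time after it, and an adult population arises from progenitor cells during postnatal growth. LH binds its receptor LHCGR and raises cyclic AMP, STAR moves cholesterol into mitochondria, CYP11A1 cleaves its side chain to give pregnenolone, and HSD3B, CYP17A1 and HSD17B3 carry out the remaining steps to testosterone. The nuclear receptor SF-1, the product of *Nr5a1*, binds the promoters of many of these genes.

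Between 15448191 and 18964743 reads per sample, recovered from the deposited FPKM (fragments per kilobase of gene, scaled to library size), lay behind the values. *Srsf1*, the deleted gene, was at 86.6 ± 3.85 FPKM (Ctrl) against 47.7 ± 3.48 FPKM (cKO; SD, n = 3 each) without overlap, in the direction that the labels give. The deposited extraction text names retina, whereas the sample labels name testis, and in these libraries the photoreceptor gene *Crx* was at 0 reads in all 6 samples, while the Sertoli-cell hormone gene *Amh* was at 257 FPKM or more. Ctrl 2 stood apart from the other Ctrl samples. Its 10 germ-cell marker genes summed to 330.1 FPKM, against 143 and 157 FPKM in Ctrl 1 and 3, and to between 38.0 and 71.5 FPKM in the cKO samples.

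Of the 10 genes, 9 had a mean of at least 0.5 FPKM and were tested, and the other, *Hsd3b6*, was nearly absent. The mean was higher in cKO testes for 8 of the 9 genes and lower for *Star*. *Insl3*, *Cyp11a1*, *Lhcgr* and *Hsd17b3* had each cKO value above all Ctrl values. These were 4 of 9 genes, where 10.3% of the 16206 tested genes were higher without overlap, and 0 of 9 were lower without overlap, where 12.8% of all tested genes were. None of the 9 passed an adjusted p-value of 0.05 in limma, and neither did any other tested gene (0.0% of those tested). Limma voom on the recovered reads called 0 of the 9, where it called 22 higher and 61 lower of the 16206 tested genes. The paper, with a test on read counts of these samples, reported genes both lower and higher in cKO testes at that threshold. The lack of calls over all genes thus holds for this limma fit and some of its alternatives, and not for others. At an unadjusted p under 0.05 in limma, 4 of the 9 (*Lhcgr*, *Insl3*, *Cyp11a1* and *Scarb1*) were higher, against 1069 or 6.6% of all tested genes, and 0 were lower, against 1508 of all tested genes. The median log2 fold change of the 9 genes was 0.36, against 0.0027 for all tested genes. Each value sums RNA over all cells of the testis, so more cells of a type and more RNA per cell cannot be told apart.

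**Figure D1:**
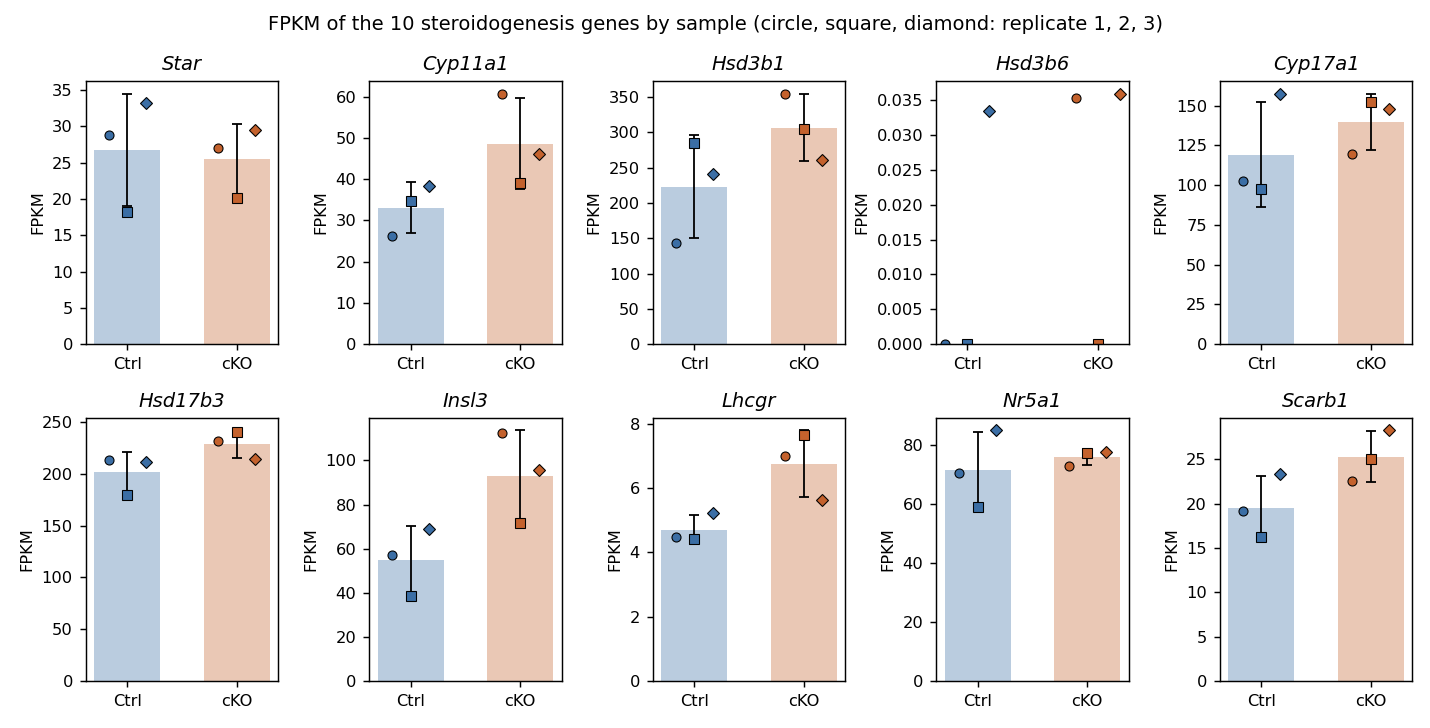
FPKM (y axis) of each of the 10 genes in the 3 Ctrl and 3 cKO testes (x axis); points are samples, bars are group means and error bars are SD, with no bar for *Hsd3b6*, which was not tested. *Insl3*, *Cyp11a1*, *Lhcgr* and *Hsd17b3* have every cKO point above every Ctrl point.

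The genes that bring cholesterol to the pathway were considered first. Positions are those of the deposited table (GRCm38), and values of a group are given in the order of replicates 1, 2 and 3. *Scarb1* (ENSMUSG00000037936, chr5:125277087-125341094, − strand) encodes the receptor for high-density lipoprotein, from which rodent steroidogenic cells take up cholesterol esters. *Scarb1* was at 19.1, 16.3 and 23.3 FPKM across the Ctrl replicates, against 22.5, 25.1 and 28.3 FPKM across the cKO replicates. Only Ctrl 3 reached into the cKO range, where it lay above cKO 1. The log2 fold change was 0.36 (SE 0.14, 95% interval 0.024 to 0.70, limma adjusted p-value 0.294).

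*Star* (ENSMUSG00000031574, chr8:25806555-25815982, + strand), whose product carries out the step that LH acutely controls, had overlapping values in the groups. It was at 28.8, 18.2 and 33.3 FPKM across the Ctrl replicates, against 27.0, 20.1 and 29.4 FPKM across the cKO replicates. The groups overlapped widely, and the lowest and the highest of the 6 values were both in Ctrl testes. The log2 fold change was −0.04 (SE 0.23), and its interval, from −0.59 to 0.50, spans changes as large as those estimated for *Lhcgr* or *Scarb1* (limma adjusted p-value 0.945).

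*Cyp11a1* (ENSMUSG00000032323, chr9:58006411-58027023, + strand) encodes the side-chain cleavage enzyme, the entry into steroid synthesis. It was at 26.3, 34.6 and 38.4 FPKM across the Ctrl replicates, against 60.7, 39.0 and 46.0 FPKM across the cKO replicates. The groups did not overlap, although cKO 2 was close to Ctrl 3. The cKO mean was 147% of the Ctrl mean, and the log2 fold change was 0.53 (SE 0.19, limma adjusted p-value 0.261). The gene shares 3.02% of its exonic bases with the lincRNA gene *Gm17322*, which was at 1.39 FPKM or less.

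*Hsd3b1* (ENSMUSG00000027871, chr3:98852194-98859794, − strand) and *Hsd3b6* (ENSMUSG00000027869, chr3:98805504-98814443, − strand) encode isoenzymes of the same step, the conversion of pregnenolone to progesterone. In mice, *Hsd3b1* is expressed in fetal and adult Leydig cells, whereas *Hsd3b6* is known as the isoform of adult Leydig cells. The genes lie near each other on chromosome 3, and their coding sequences, of 1119 bases each in GENCODE M21, are identical at 90.0% of positions. The first 60 coding bases are given here to show how the isoforms can be told apart by reads, at chr3:98857905-98857964 for *Hsd3b1* and chr3:98810987-98811046 for *Hsd3b6* (GRCm38, both on the − strand), with the 7 bases that differ in capitals:
Hsd3b1: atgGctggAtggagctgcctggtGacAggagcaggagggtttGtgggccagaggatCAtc
Hsd3b6: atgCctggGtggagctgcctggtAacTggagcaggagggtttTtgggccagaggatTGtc

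Of the 50-base stretches of *Hsd3b1* transcripts, 2.05% also occur in *Hsd3b6* and 4.86% occur in any other gene. For *Hsd3b6*, 15.7% occur in another gene, most of them in *Hsd3b2* and *Hsd3b3*.

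*Hsd3b1* had the highest mean of the 10 genes in both groups. It was at 143, 286 and 241 FPKM across the Ctrl replicates, against 355, 304 and 261 FPKM across the cKO replicates. Ctrl 2 lay above cKO 3, so the groups overlapped, and Ctrl 1 was far below the other samples. The log2 fold change was 0.50 (SE 0.25, limma adjusted p-value 0.391). Without Ctrl 2 the groups did not overlap and the log2 fold change was 0.71, and over the 6 fits that leave out a sample it ranged from 0.21 to 0.71.

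In contrast, *Hsd3b6* had 1 read in each of Ctrl 3, cKO 1 and cKO 3 and 0 reads in Ctrl 1, Ctrl 2 and cKO 2. These 3 reads stood against 49058 reads of *Hsd3b1*. In the libraries with 0 reads, a floor of 3 reads per library would be at most 0.103 FPKM, and *Hsd3b1* was at least 1393-fold higher than this floor in Ctrl 1, at least 3265-fold in Ctrl 2 and at least 3054-fold in cKO 2, counting error only. Thus, *Hsd3b6* was at or under the floor in both genotypes, and no fold change between them is given. The further isoform genes *Hsd3b2* and *Hsd3b3* were above 0 in 1 sample each, and *Hsd3b4* and *Hsd3b5* were listed at 0 in all 6 samples.

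*Cyp17a1* (ENSMUSG00000003555, chr19:46667165-46672974, − strand) encodes the hydroxylase and lyase that turns progestins into androgens. It was at 103, 97.8 and 158 FPKM across the Ctrl replicates, against 119.6, 152 and 148 FPKM across the cKO replicates. Ctrl 3 was the highest of all samples and the other Ctrl samples were the lowest. The log2 fold change was 0.25 (SE 0.20, limma adjusted p-value 0.557).

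*Hsd17b3* (ENSMUSG00000033122, chr13:64058266-64089230, − strand) encodes the enzyme of the last step, from androstenedione to testosterone. In the fetal mouse testis this step is known to take place in Sertoli cells, and later it takes place in adult Leydig cells, so the cells behind these values cannot be named from whole testes. *Hsd17b3* was at 214, 179.7 and 212 FPKM across the Ctrl replicates, against 232, 240.5 and 214 FPKM across the cKO replicates. The groups did not overlap, but cKO 3, at 214.5 FPKM, was separated from Ctrl 1, at 213.8 FPKM, by less than the spread within either group. The cKO mean was 113% of the Ctrl mean, with a log2 fold change of 0.18 (SE 0.11, limma adjusted p-value 0.441).

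*Lhcgr* (ENSMUSG00000024107, chr17:88741549-88791976, − strand), the LH receptor gene, had the lowest level of the tested genes and the smallest adjusted p-value. It was at 4.48, 4.42 and 5.24 FPKM across the Ctrl replicates, against 6.995, 7.67 and 5.63 FPKM across the cKO replicates, on 185 to 327 reads per sample. The groups did not overlap, with cKO 3 nearest to the Ctrl range. The cKO mean was 143% of the Ctrl mean, and the log2 fold change was 0.44 (SE 0.13, 95% interval 0.14 to 0.73, limma adjusted p-value 0.189).

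*Nr5a1* (ENSMUSG00000026751, chr2:38692656-38714542, − strand), which encodes SF-1 and is expressed in Sertoli cells as well as Leydig cells, also overlapped. It was at 70.7, 59.0 and 85.1 FPKM across the Ctrl replicates, against 73.0, 77.4 and 77.7 FPKM across the cKO replicates. All cKO values lay inside the Ctrl range. The log2 fold change was 0.10 (SE 0.13, 95% interval −0.21 to 0.42, limma adjusted p-value 0.747), and without Ctrl 2 it was −0.03.

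*Insl3* (ENSMUSG00000079019, chr8:71689214-71690575, + strand) encodes insulin-like peptide 3, the Leydig-cell hormone that drives the descent of the testis. It showed the greatest fold change of the 9 tested genes. It was at 57.2, 38.5 and 68.9 FPKM across the Ctrl replicates, against 112, 71.4 and 95.6 FPKM across the cKO replicates, on 457 to 1101 reads per sample. The groups did not overlap, though cKO 2 was only just above Ctrl 3. The cKO mean was 1.70 times the Ctrl mean, and the log2 fold change was 0.77 (SE 0.24, 95% interval 0.20 to 1.33, limma adjusted p-value 0.212). Without Ctrl 2, the lowest sample, it was 0.54.

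The *Insl3* value is uncertain in its scale, because *Insl3* lies within *Jak3* on the same strand and 64.8% of its 623 exonic bases are also annotated as exon of *Jak3*, a kinase gene of lymphoid cells. Reads in shared bases could be left out or assigned to either gene by the counting, which gave whole numbers of reads. *Jak3* itself was at 1.12, 0.687 and 1.10 FPKM across the Ctrl replicates, against 1.33, 1.53 and 1.4997 FPKM across the cKO replicates, also without overlap. Its log2 fold change was 0.32 (SE 0.14, limma adjusted p-value 0.311), and whether its reads came from *Insl3* transcripts was not tested.

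**Figure D2:**
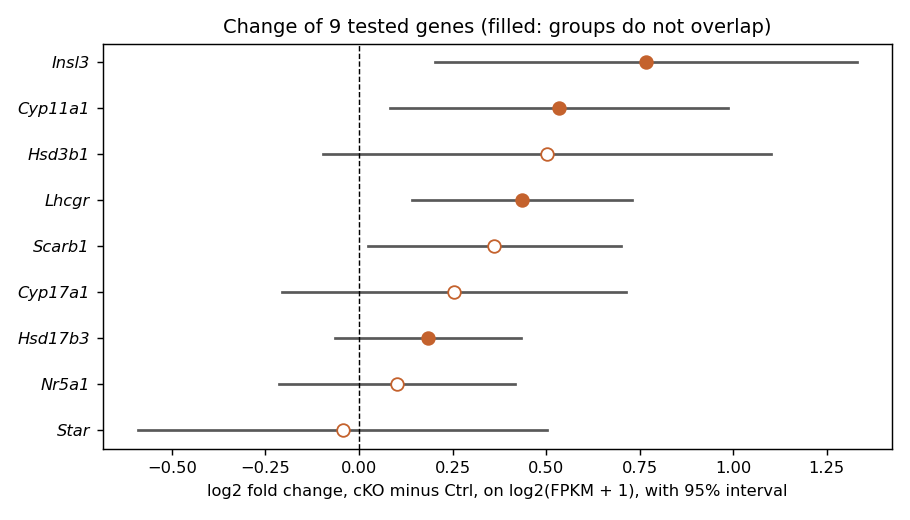
Log2 fold change (x axis, cKO minus Ctrl on the log2(FPKM + 1) scale) of the 9 tested genes (y axis) with the 95% interval from limma; filled points are genes whose groups do not overlap. The intervals of *Insl3*, *Cyp11a1*, *Lhcgr* and *Scarb1* lie above 0 before adjustment over all genes, and that of *Star* is centred near 0.

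Promoter sequences of 300 bases, from 250 bases before to 50 after a transcription start, were found in the RefSeq table (GRCm38.p6) for 6 of the 10 genes. They were searched on both strands for CAAGGTCA and CAAGGCCA, forms of the SF-1 site, and for its core AGGTCA. After the sequences had been read, the shorter form CAAGGNC, which matches the start of both longer forms, was added. Matches were found for *Insl3*, *Cyp11a1* and *Lhcgr* and not for *Hsd17b3*, though all of these were higher in cKO testes without overlap. Whether matches relate to these changes was not tested. The promoters with a match are shown, with matches in capitals. They lie at chr8:71689002-71689301 (+ strand), chr9:58014702-58015001 (+ strand) and chr17:88791965-88792264 (− strand):
Insl3: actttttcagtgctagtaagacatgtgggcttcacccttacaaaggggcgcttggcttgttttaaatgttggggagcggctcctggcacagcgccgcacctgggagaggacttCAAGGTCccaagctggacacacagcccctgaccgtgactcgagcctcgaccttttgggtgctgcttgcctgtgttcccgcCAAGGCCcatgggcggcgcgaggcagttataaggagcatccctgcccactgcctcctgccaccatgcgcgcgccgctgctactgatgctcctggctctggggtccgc
Cyp11a1: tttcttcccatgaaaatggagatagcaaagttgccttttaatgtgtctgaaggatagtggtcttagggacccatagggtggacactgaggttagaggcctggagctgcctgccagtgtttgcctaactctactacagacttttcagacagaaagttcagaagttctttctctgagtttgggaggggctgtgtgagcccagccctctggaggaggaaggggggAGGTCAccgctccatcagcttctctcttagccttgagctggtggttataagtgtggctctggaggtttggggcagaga
Lhcgr: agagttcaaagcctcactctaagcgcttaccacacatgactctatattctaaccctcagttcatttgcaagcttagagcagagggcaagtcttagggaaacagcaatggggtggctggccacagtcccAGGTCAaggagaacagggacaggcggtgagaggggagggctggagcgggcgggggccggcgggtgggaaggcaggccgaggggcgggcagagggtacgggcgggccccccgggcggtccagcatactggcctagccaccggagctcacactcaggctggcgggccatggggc

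The *Insl3* promoter held CAAGGNC starting at −137 and −57 from the start site, and 2.07% of the 32851 promoters in the table held 2 or more such matches (17.8% held any). Since this form was chosen from these promoters, the shares are a description and no test. *Cyp11a1* held AGGTCA at −28 and *Lhcgr* at −122, a core found in 16.3% of all promoters. The 8-base forms were in none of the members' promoters, against 1.56% (CAAGGTCA) and 2.40% (CAAGGCCA) of all promoters. A second *Cyp11a1* promoter and those of *Hsd3b1*, *Hsd3b6* and *Hsd17b3* held no match. These matches are strings of letters and not sites of measured binding.

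By deposited level, the order in Ctrl testes was *Hsd3b1* (223 ± 72.7), *Hsd17b3* (202 ± 19.1), *Cyp17a1* (119 ± 33.2), *Nr5a1* (71.6 ± 13.1), *Insl3* (54.9 ± 15.3), *Cyp11a1* (33.1 ± 6.18), *Star* (26.8 ± 7.73), *Scarb1* (19.6 ± 3.55) and *Lhcgr* (4.71 ± 0.458), in FPKM (SD, n = 3). Among neighbours in this order, the Ctrl ranges overlapped for *Hsd3b1* and *Hsd17b3*, for *Nr5a1* and *Insl3*, for *Cyp11a1* and *Star*, and for *Star* and *Scarb1*. In cKO testes *Insl3* (93.1 ± 20.6 FPKM) was above *Nr5a1* (76.0 ± 2.62 FPKM) on average but in only 2 of 3 samples. The order rests on the gene lengths in the table. For *Scarb1* (8500 bases) and *Cyp11a1* (4804 bases) these were 3.37 and 2.27 times the longest coding transcript in GENCODE M21, and for *Lhcgr* (2553 bases) 0.374 times. Rescaled to the longest coding transcript, with the same reads, *Cyp11a1* in Ctrl testes would be at 75.0 and *Scarb1* at 66.0, above *Insl3*. *Nr5a1* would be at 101.4, near *Cyp17a1* at 107.5, though the deposited coordinates of *Cyp17a1* differ from those in GENCODE M21. The same rescaling gives 1.76 for *Lhcgr*, but its coordinates in the deposited table also differ from those in GENCODE M21. Reads outside the deposited *Lhcgr* gene would not have been counted, so 1.76 is not a corrected level. The ratio of a gene's FPKM between samples does not depend on this length, but its log2(FPKM + 1) difference does through the pseudocount, and for *Lhcgr* it was 0.44 with a pseudocount of 1 and 0.50 with 0.1.

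The genes did not vary as a unit between samples. Ctrl 2 was the lowest of all 6 samples for 7 of the 9 genes, and Ctrl 1 was the lowest for the other 2, *Hsd3b1* and *Cyp11a1*. The highest sample was cKO 1 for *Cyp11a1*, *Hsd3b1* and *Insl3*, cKO 2 for *Hsd17b3* and *Lhcgr*, cKO 3 for *Scarb1*, and Ctrl 3 for *Star*, *Cyp17a1* and *Nr5a1*. On average over the 9 genes, log2(FPKM + 1) deviated from the gene means by −0.26, −0.33 and 0.08 in Ctrl 1, 2 and 3 and by 0.24, 0.11 and 0.17 in cKO 1, 2 and 3, so Ctrl 3 was closer to the cKO samples than to the other Ctrl samples. With Ctrl 2 left out, 5 of 9 genes were higher without overlap, against 13.5% of all tested genes, and *Hsd3b1* joined the 4 named above. With Ctrl 3 left out, 7 of 9 were, against 16.9%. The count was 4 of 9 without Ctrl 1 (16.1% of all tested genes) and without cKO 2 (16.4%). It was 5 of 9 without cKO 1 (14.7%) and without cKO 3 (17.1%). Leaving out a sample can keep or raise such a count but cannot lower it. The summed germ-cell markers given above were highest in Ctrl 2, and their part in these differences was not tested.

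**Figure D3:**
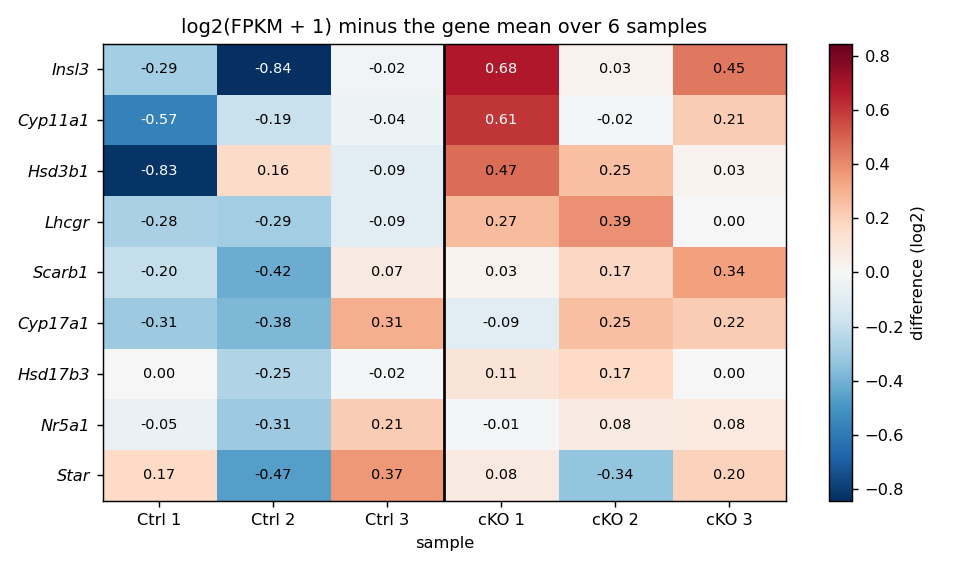
Log2(FPKM + 1) minus the mean of the gene over all 6 samples, for the 9 tested genes (rows) and the samples (columns; Ctrl left and cKO right of the line); red is above and blue below the gene mean. Ctrl 2 is the lowest column for 7 genes, and the row of *Star* does not part by genotype.

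Ratios within a sample asked whether the members changed relative to each other. The ratios printed are of FPKM, whereas the tests used the log2 ratio of FPKM + 1. The ratio of *Insl3* to *Cyp11a1* FPKM was 2.18, 1.11 and 1.80 across the Ctrl replicates, against 1.85, 1.83 and 2.08 across the cKO replicates, with a p of 0.7 in an exact permutation test (two-sided). The ratio of *Lhcgr* to *Star* was 0.155, 0.243 and 0.158 across the Ctrl replicates, against 0.259, 0.382 and 0.191 across the cKO replicates, with overlap between Ctrl 2 and cKO 3 (exact permutation p 0.2). That of *Hsd17b3* to *Cyp17a1* was 1.76 ± 0.378 in Ctrl and 1.66 ± 0.252 in cKO testes (SD; exact permutation test, n = 3 per group, p 0.9). On the tested scale of FPKM + 1, the ratio of *Hsd3b6* to *Hsd3b1* followed *Hsd3b1* almost alone, since *Hsd3b6* had at most 1 read per sample (exact permutation p 0.2). After adjustment over the 4 ratios, these exact p-values ran from 0.4 to 0.9, and 3 against 3 samples cannot give less than 0.1.

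Genes that work beside the members were then compared, in lists that were chosen with earlier results known. None of these genes passed an adjusted p-value of 0.05 in limma. Of 8 genes for electron donors and mitochondrial cholesterol import, 6 were higher and 2 lower, with a median log2 fold change of 0.05. Of the 8, 1 was higher without overlap, against 10.3% of all tested genes, and 0 were lower without overlap, against 12.8%. The higher one was *Fdxr*, the ferredoxin reductase that feeds electrons to CYP11A1. It was at 71.1, 48.1 and 79.7 FPKM across the Ctrl replicates, against 86.5, 91.3 and 102 FPKM across the cKO replicates (log2 fold change 0.51, SE 0.18, limma adjusted p-value 0.259). Its partner *Fdx1* was at 21.6 ± 1.06 FPKM (Ctrl) against 20.8 ± 3.64 FPKM (cKO; SD, n = 3).

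Of 16 other steroid-converting enzymes, 14 were matched by name and 7 tested, of which 4 were higher and 3 lower, with a median of 0.10. Of these 7, 3 were higher and 1 was lower without overlap, against 10.3% and 12.8% of all tested genes. *Hsd17b1*, a 17-beta-hydroxysteroid dehydrogenase, was at 126, 98.9 and 177 FPKM across the Ctrl replicates, against 219, 188 and 228 FPKM across the cKO replicates (log2 fold change 0.69, SE 0.21, limma adjusted p-value 0.201). *Sult1e1*, the estrogen sulfotransferase, was at 0.249, 1.06 and 0.388 FPKM across the Ctrl replicates, against 1.38, 1.40 and 1.67 FPKM across the cKO replicates (limma adjusted p-value 0.193). *Hsd11b2*, which inactivates glucocorticoids, was at 7.25 ± 1.47 FPKM (Ctrl) against 10.1 ± 2.24 FPKM (cKO; SD, n = 3). *Hsd11b1*, known as a gene of adult Leydig cells, was at 0.423 FPKM or less in all samples, and the aromatase gene *Cyp19a1* at 0.0465 FPKM or less.

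Among 11 genes of cholesterol supply, 4 were higher and 7 lower, with a median of −0.07. Among 11 genes of signalling below the LH receptor, 6 were higher and 5 lower, with a median of 0.04. The phosphodiesterase gene *Pde4b*, whose product degrades cyclic AMP, was at 2.32, 1.60 and 1.85 FPKM across the Ctrl replicates, against 1.27, 0.885 and 1.01 FPKM across the cKO replicates, without overlap (log2 fold change −0.51, SE 0.14, limma adjusted p-value 0.178), and the cKO mean was 54.8% of the Ctrl mean. *Prkar2a*, a regulatory subunit of protein kinase A, was lower without overlap at a log2 fold change of −0.17. *Pde4b* and *Prkar2a* were 2 of 11 genes, where 12.8% of all tested genes were lower without overlap.

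The transcription regulators of steroidogenic cells, 15 genes, had a median of 0.11, with 12 higher and 3 lower. Of the 15, 2 were higher and 2 lower without overlap, against 10.3% and 12.8% of all tested genes. *Nr5a2*, a paralogue of *Nr5a1*, was at 1.57, 0.855 and 1.18 FPKM across the Ctrl replicates, against 0.280, 0.254 and 0.505 FPKM across the cKO replicates, without overlap (log2 fold change −0.70, SE 0.17, limma adjusted p-value 0.144). Its cKO mean was 28.8% of the Ctrl mean, a larger change than the log2(FPKM + 1) scale shows at such low levels. *Nr0b1*, which encodes a repressor of SF-1, was lower without overlap, at 31.4 ± 1.74 FPKM (Ctrl) against 26.4 ± 2.40 FPKM (cKO; SD, n = 3; limma adjusted p-value 0.287). *Lhx9* was higher without overlap, at 6.78 ± 0.848 FPKM (Ctrl) against 8.97 ± 1.33 FPKM (cKO; SD, n = 3; limma adjusted p-value 0.262).

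Genes of Leydig progenitors and stroma were all higher in cKO testes on average, 8 of 8, with a median log2 fold change of 0.32, where 8180 of the 16206 tested genes were higher. Of the 8, 5 were higher without overlap, against 10.3% of all tested genes. *Hes1*, a Notch target, was at 16.9, 14.3 and 15.5 FPKM across the Ctrl replicates, against 22.0, 19.4 and 22.1 FPKM across the cKO replicates (log2 fold change 0.42, SE 0.095, limma adjusted p-value 0.132). *Pdgfra*, a growth factor receptor of interstitial progenitors, was at 67.4, 51.1 and 56.0 FPKM across the Ctrl replicates, against 78.5, 74.8 and 68.6 FPKM across the cKO replicates (limma adjusted p-value 0.239). *Notch3* was at 3.70 ± 0.722 FPKM (Ctrl) against 4.96 ± 0.334 FPKM (cKO; SD, n = 3). A further list held *Rxfp2*, the receptor gene for INSL3, which was under the filter at 0.201 FPKM or less, and the hedgehog, PDGF and AMH signalling genes *Ptch1*, *Gli1*, *Dhh*, *Pdgfra* (also in the progenitor list) and *Amhr2*. Of these 5, 4 were higher and 1 lower, with a median of 0.27. Without overlap, 2 of the 5 were higher, against 10.3% of all tested genes. The hedgehog target *Gli1*, which responds to desert hedgehog from Sertoli cells, was higher without overlap, at 21.1 ± 3.59 FPKM (Ctrl) against 26.8 ± 1.14 FPKM (cKO; SD, n = 3), while the ligand gene *Dhh* had a log2 fold change of 0.0025.

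Of 11 other Leydig-cell genes, 10 were tested, of which 9 were higher and 1 lower, with a median of 0.08. Without overlap, 3 of the 10 were higher and 1 was lower, against 10.3% and 12.8% of all tested genes. *Inhba*, the activin subunit gene, was at 20.3, 21.9 and 23.1 FPKM across the Ctrl replicates, against 37.9, 33.8 and 34.6 FPKM across the cKO replicates, and its limma adjusted p-value of 0.0655 was the lowest in this list. It passed the threshold among protein-coding genes alone, under limma voom and with sample weights. *Prlr*, the prolactin receptor gene, was higher without overlap, with a log2 fold change of 0.51. *Gsta4*, a glutathione transferase gene, was the lower one, without overlap, at a log2 fold change of −0.19. *Thbs2*, a fetal Leydig-cell gene, was at 23.4 ± 2.67 FPKM (Ctrl) against 24.4 ± 2.06 FPKM (cKO; SD, n = 3).

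Adrenal cortex-like cells, a steroidogenic cell type that the neonatal mouse testis can hold, were marked by 6 genes that summed to between 12.2 and 16.6 FPKM in Ctrl and between 14.2 and 15.3 FPKM in cKO testes. *Cyp21a1*, the 21-hydroxylase gene, was at 2.05, 2.04 and 2.08 FPKM across the Ctrl replicates, against 1.34, 1.15 and 1.75 FPKM across the cKO replicates. *Cyp11b1*, the 11-beta-hydroxylase gene, was at 1.23, 1.76 and 1.26 FPKM across the Ctrl replicates, against 0.884, 0.927 and 0.634 FPKM across the cKO replicates. Both were lower without overlap (log2 fold changes −0.35 and −0.41, limma adjusted p-values 0.262 and 0.251), with cKO means at 68.7% and 57.6% of the Ctrl means. They were 2 of 4 tested genes, where 12.8% of all tested genes were lower without overlap. *Akr1b7* and *Mrap* overlapped and were higher on average (log2 fold changes 0.23 and 0.08), and *Cyp11b2* and *Mc2r* were under the filter, at 0.239 and 0.537 FPKM or less.

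Markers of other cells were compared in the same way. None passed the threshold in limma, and their part in the members' values was not tested. The 10 germ-cell markers were all lower (median log2 fold change −1.49), 9 of them without overlap, against 12.8% of all tested genes. *Dnd1*, which encodes an RNA-binding protein of germ cells, was at 9.53 ± 3.08 FPKM (Ctrl) against 2.47 ± 0.364 FPKM (cKO; SD, n = 3). The paper reported *Dnd1* as significantly reduced in cKO testes, by RNA-seq and by RT-qPCR. Of 10 Sertoli-cell markers, 3 were higher and 7 lower (median −0.17), and their sum was between 1593 and 2090.2 FPKM in Ctrl and between 1768 and 2137 FPKM in cKO testes. Of 6 peritubular myoid markers 5 were lower (median −0.35), of 6 endothelial markers 5 were higher (median 0.28), and the 6 tested macrophage markers had a median of 0.05. All 5 red blood cell genes were higher on average (median 0.69) with overlap, and summed to between 438 and 697 FPKM in Ctrl and between 526 and 1479 FPKM in cKO testes. The 5 genes of mesonephric and epididymal epithelium summed to 3.68 FPKM or less in every sample.

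**Figure D4:**
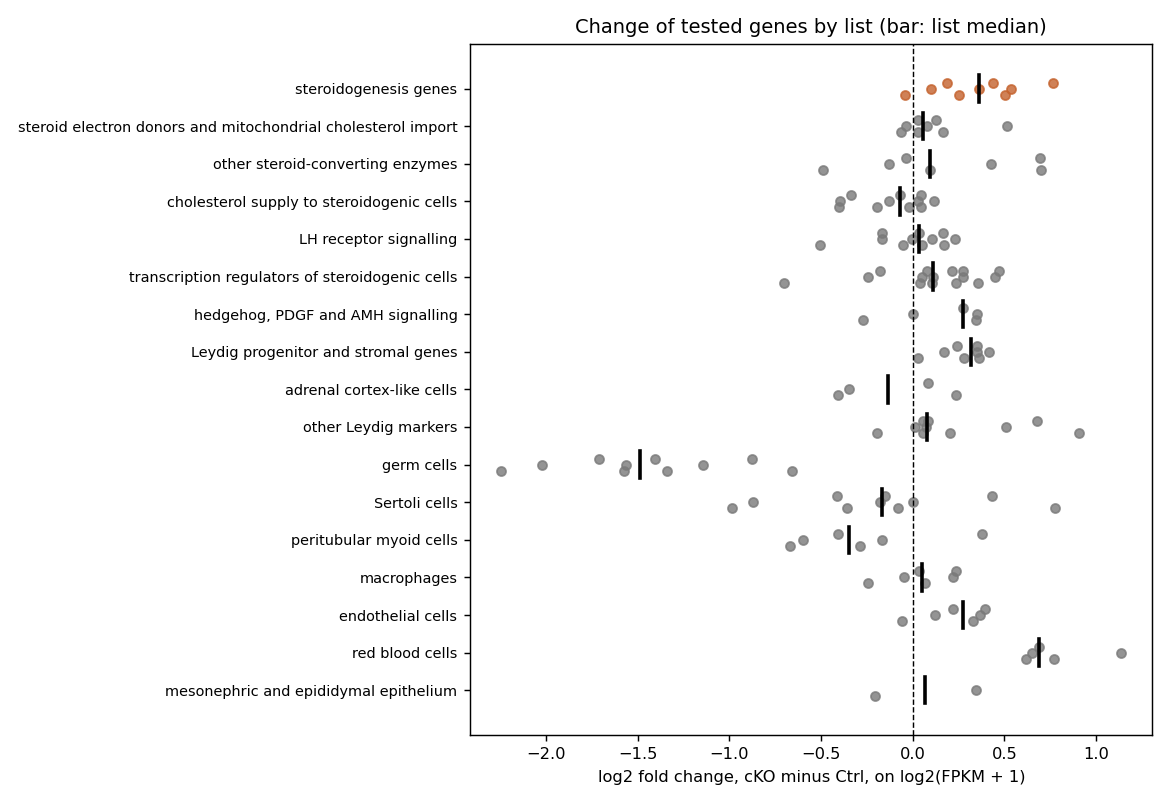
Log2 fold change (x axis, cKO minus Ctrl on the log2(FPKM + 1) scale) of each tested gene in the steroidogenesis list and in the lists of related genes and markers of other cells (y axis); points are genes and bars are list medians. The 9 steroidogenesis genes have a median of 0.36 and the 10 germ-cell markers a median of −1.49.

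Finally, the genes most like the members in pattern were sought among 12089 protein-coding genes that averaged 1 FPKM or more. The measure was the Euclidean distance, over the 6 samples, between the standardised log2(FPKM + 1) values of a gene and the mean standardised pattern of the 9 members. The 5 nearest genes were *Slc39a1* (distance 0.157), *Aph1a* (0.180), *Efna2* (0.222), *Scn2b* (0.238) and *Adamts16* (0.288). *Slc39a1*, a zinc transporter gene, was at 49.6 ± 5.25 FPKM (Ctrl) against 56.6 ± 0.569 FPKM (cKO; SD, n = 3). The members themselves lay farther from their mean pattern, from 1.03 for *Insl3* to 2.60 for *Star*, and 209 other genes were nearer to it than *Insl3* was.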

How the data were processed

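RNA of 3 Ctrl and 3 cKO testis samples at 5 dpp was sequenced by the authors as paired-end polyadenylated RNA, aligned to mm10 (GRCm38) with HISAT2 2.0.5 (per the labels) and counted per gene with featureCounts. The authors deposited FPKM values computed from read counts and gene length, with the length and coordinates of each gene. The annotation release is not given in the sources used here. Products of FPKM and length were whole multiples of a step per sample (100% of values above 0 within 0.01 of a whole number), which gave reads per gene. The deposited scaling between libraries equalled median-of-ratios factors. For 1 kb of gene, 3 reads equal 0.158 to 0.194 FPKM, and floors and intervals on reads cover counting error only.

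The 16206 genes averaging 0.5 FPKM or more entered a limma 3.58.1 fit (R 4.3.3) of log2(FPKM + 1), with 2 groups, no covariate, a mean-variance trend and Benjamini-Hochberg adjustment over all tested genes at a threshold of 0.05. P-values are two-sided. This scale understates changes of low genes. The test was tried on simulated data. Ratios within samples were tested by exact permutation of the log2 ratio of FPKM + 1. The members, lists and tests were chosen with earlier results of these data known. Named were the 10 members, *Srsf1*, the genes of each list without overlap between groups (the 3 with the lowest p where there were more), all adrenal and epididymal markers and the 5 genes nearest in pattern. Any other gene named was chosen after its values were seen, as were the levels of *Jak3* and *Crx*. Some items that the rule would name are not reported here. Alternatives were another pseudocount (0.1), no filter or a filter at 1 FPKM, TPM, undone library scaling, quantile normalization, no trend, limma voom on the reads, sample weights, a replicate block, restriction to protein-coding genes, and leaving out each replicate. The overlap counts without a library were added after seeing the data. Overlapping genes and transcript sequences came from GENCODE M21, and promoters from RefSeq.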

Additional observations from a re-analysis of the deposited data

How the results depend on the processing

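No member passed the threshold of 0.05 in any of the 17 alternatives, and the smallest adjusted p-values in limma were 0.089 (*Insl3*, in a range up to 0.463) and 0.111 (*Lhcgr*, up to 0.437). Over the alternatives the log2 fold change ranged from 0.54 to 0.95 for *Insl3*, from 0.36 to 0.68 for *Cyp11a1* and from 0.35 to 0.55 for *Lhcgr*, and leaving out each replicate moved *Star* from −0.29 to 0.13, *Nr5a1* from −0.029 to 0.23, the ratio of *Insl3* to *Cyp11a1* from −0.037 to 0.43 and that of *Hsd17b3* to *Cyp17a1* from −0.25 to 0.065 (log2 differences). The members' median ranged from 0.23 to 0.49. *Srsf1* passed under TPM (−0.86, adjusted p 0.036), protein-coding genes alone (−0.85, 0.016), voom (−0.86, 0.0255), sample weights (−0.88, 0.029) and the replicate block (−0.85, 0.033). Deviations of same-numbered samples correlated at 0.066, 0.016 and 0.088, so the numbers were not read as pairs. With the replicate block, 4 germ-cell markers passed, no member did, and over all genes 14 were higher and 84 lower.

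Counts of list genes passing the threshold rose from 0 for germ-cell markers among protein-coding genes alone (5), under voom (4), with sample weights (1) and without Ctrl 2 (1, range 0 to 1 over left-out replicates), for Sertoli-cell markers (2, 1 and 1 under the first 3), for the other Leydig-cell genes (1 each under these 3, *Inhba*) and for peritubular myoid markers (1 among protein-coding genes alone). Over all genes, protein-coding genes alone gave 37 higher and 176 lower, voom 22 and 61, sample weights 13 and 55, TPM 4 and 1, no trend 1 and 0, leaving out Ctrl 2 gave 3 and 15 and leaving out Ctrl 3 gave 3 and 2, against 0 and 0 (1069 and 1508 at an unadjusted p under 0.05 in limma). The adrenal median was 0.043 without a filter, and over left-out replicates ranged from −0.18 to −0.036. The progenitor median ranged from 0.20 to 0.36. A mean of at least 1 FPKM left no epididymal gene. The cause of these shifts was not tested. With 3 samples per group and 185 to 327 reads, depth was least for *Lhcgr* among the tested members.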
